A study of Rattus norvegicus with 9 samples.

Results

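The growth hormone and insulin-like growth factor (IGF) axis was followed in rat liver through 10 genes: the receptor Ghr, the transducer Stat5b, the feedback inhibitors Cish and Socs2, the growth factor Igf1, its carrier Igfals, and the binding proteins Igfbp1, Igfbp2, Igfbp3 and Igfbp4. The members were all probe sets that carry 1 of these symbols and no other in the array's annotation, which gave 15 of the 31042 probe sets of the array. All 10 genes were found: Igf1 had 3 probe sets, Ghr, Cish and Igfbp3 had 2 each, and the other genes had 1 each. The samples were livers of Wistar rats, all labelled male, each measured on 1 Affymetrix rat array with a single label: 3 livers of a drug group that received the compound 7-P, 3 of a model group and 3 of a control group. They were drawn at random from 36 rats split into groups of 12. What was done to the model rats, what 7-P is, and whether the drug rats also went through the model treatment are not given in the sources used here.

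As background, growth hormone from the pituitary binds its receptor on hepatocytes, and the kinase bound to that receptor phosphorylates STAT5b, which enters the nucleus and switches on genes that include Igf1, Igfals, Socs2 and Cish. The liver is the main source of circulating IGF-1, most of which travels in a complex with IGFBP-3 and the acid-labile subunit that Igfals encodes. In rats the hormone is secreted in pulses in males and more evenly in females, and this pattern sets many sex differences of liver gene expression, among them those of the cytochromes Cyp2c11 (male) and Cyp2c12 (female).

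Values are log2 signals after quantile normalization, and each difference is a log2 difference with its standard error (SE), taken from limma. Where a gene had several probe sets it was led by the brightest, and levels of different probe sets were not set against each other. Hepatocyte transcripts were high in every array, Alb (albumin) lying between 12.72 and 12.95. All 4 pituitary, 4 muscle and 4 adipose markers lay below the signal filter (the 40th percentile of mean signal), among them the transcript of growth hormone itself (Gh1, -0.85 to 3.01). The filter is on the mean, and single arrays lay higher. The muscle marker Acta1 was at 5.09 in control 1, where the summed muscle signal was 113.4, against 5.851 to 21.2 in the other arrays. Of 5 pancreas markers 1 passed the filter, Ins1. Another, Cela1, was at 7.03 in control 2 and 5.89 in drug 3, against -1.19 to 1.48 elsewhere. All rats were labelled male. By Xist, Cyp2c11 and Eif2s3y, 7 of the 9 arrays, the 3 model arrays among them, went against that label. Drug 3 and control 2 alone had a male pattern in these transcripts. Xist, the noncoding RNA of X inactivation in female cells, was at 3.05 in drug 3 and 2.65 in control 2, and between 8.06 and 10.89 in the other 7 arrays. Cyp2c11 was at 12.11 in drug 3 and 11.28 in control 2, against 2.87 to 5.22 elsewhere. Eif2s3y, a gene of the Y chromosome, was at 7.17 in drug 3 and 6.99 in control 2, and between -2.85 and 2.53 elsewhere. Uty, another gene of the Y chromosome, did not follow. It was higher in model than in control livers and lower in drug than in model livers. Whether labels or animals were mixed cannot be told from the files. Without the 7 arrays 0 model arrays would remain, so drug 3 and control 2 were left out instead. The ratio of the 3' to the 5' signal of Gapdh, which grows as the 5' end is lost, was 1.31 in drug 1 and 1.52 in control 1, 3.14 and 3.07 in control 2 and 3, 4.09 in model 1, and between 8.71 and 12.7 in the other 4 arrays. The same ratio for beta-actin was also lowest in drug 1 (3.99) and control 1 (4.23), but ranked the other arrays otherwise. It was highest in model 1 (12.8), while model 3 (7.31) lay below control 2 (8.41) and control 3 (7.59). Differences were also computed without drug 3 and control 2, without drug 1 and control 1, and with a term for the Gapdh ratio. No term for the actin ratio was fitted. A selection of the values that moved far is given beside the results.

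No member passed the threshold of a limma adjusted p under 0.05 in any comparison, where 0 of all 18625 probe sets tested passed as well (0%). All 15 member probe sets lay above the signal filter. In model against control livers, 3 of the 10 genes were lower at an unadjusted p under 0.05, Igfals, Socs2 and Stat5b, and 0 were higher. Among all probe sets 5.54% were lower at that level. In drug against control livers 2 genes were lower, Igfals and Socs2, where 3.03% of all probe sets were. Between drug and model livers 0 genes reached that level in either direction (3.28% of all probe sets, 1.47% higher and 1.8% lower). In either direction it was 12.1% of all probe sets in model against control and 7.22% in drug against control, where 4.19% were higher. The median difference of the 10 genes was -0.31 in model against control, with 8 of 10 below 0. Over all probe sets that median was 0.02 and 48.9% were below 0. It was -0.56 in drug against control, again with 8 of 10 below 0 (median of all -0.02, and 51.5% below 0), and -0.05 in drug against model, with 6 of 10 below 0 (median of all -0.02, and 52.1% below 0). The comparisons of model and of drug livers with control share the 3 control arrays.

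With drug 3 and control 2 left out, the count in model against control was again 3 genes, now Socs2, Stat5b and Cish (2.72% of all probe sets), and that in drug against control was 0 (0.983%). With drug 1 and control 1 left out, the counts were 2 and 2 genes, Igfals and Socs2 in both comparisons, where 5.37% and 7.01% of all probe sets were lower. With a term for the Gapdh ratio in the fit they were 3 (Igfals, Igfbp3, Igfbp4) and 4 (the same 3 and Socs2), where 4.78% and 4.93% of all probe sets were lower. When arrays were scaled to a common trimmed mean instead, Igfals alone was named in model against control (4.39%). The unadjusted limma p there was 0.0683 for Socs2 and 0.0514 for Stat5b. In drug against control it was again Igfals and Socs2 (2.34%). Igfals was therefore named in each of these settings except the one without drug 3 and control 2, where its difference in model against control was -0.77 with an unadjusted p of 0.0575 and a limma adjusted p of 0.627.

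**Figure D1:**
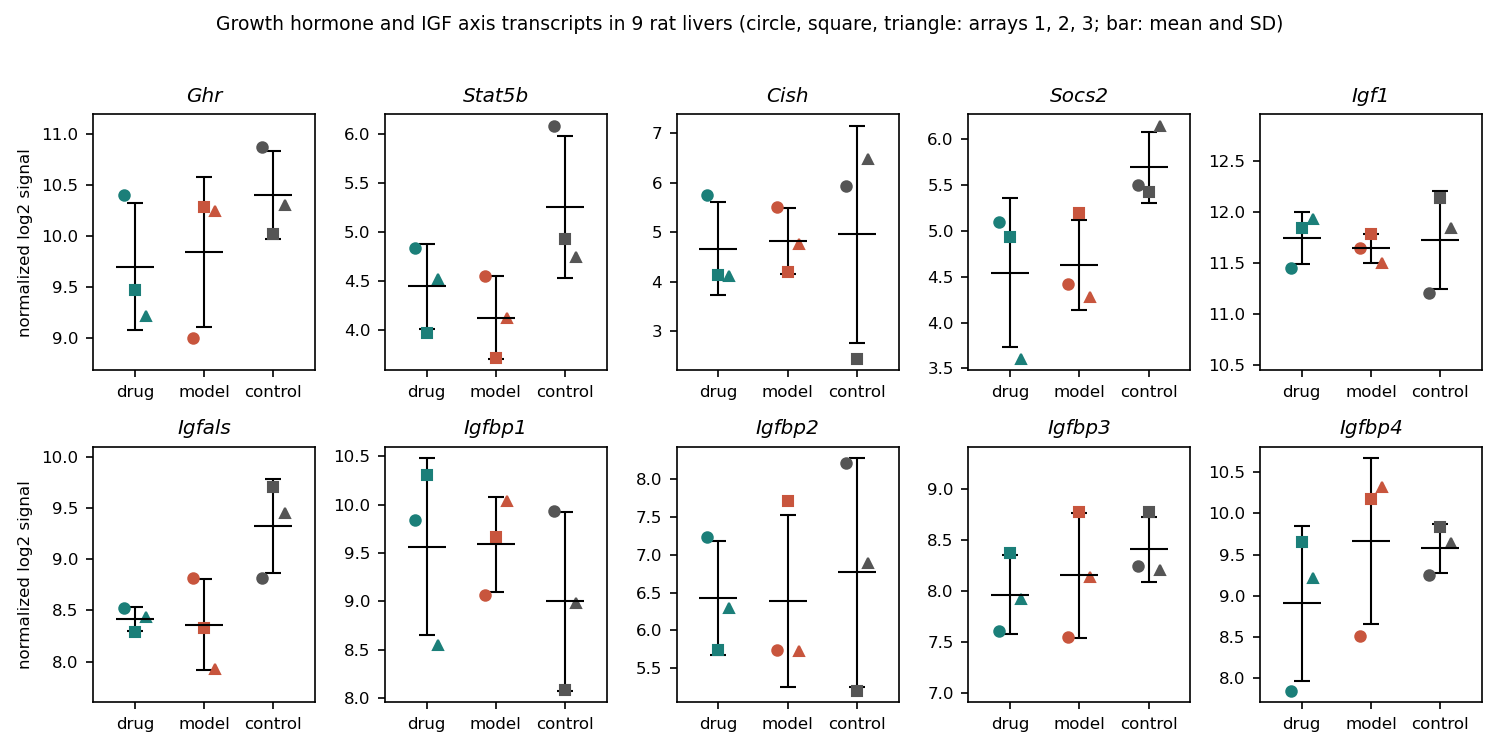
Normalized log2 signal (y axis, own range for each gene) of the leading probe set of each of the 10 genes in drug, model and control livers, with the mean and SD of 3 arrays as bars. All 3 drug values of Igfals lie below all control values, and both the drug and the model values of Socs2 lie below those of control.

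Ghr encodes the growth hormone receptor. Its brighter probe set was at 10.40, 9.48 and 9.22 in drug 1, 2 and 3, at 9.004, 10.29 and 10.25 in model 1, 2 and 3, and at 10.88, 10.03 and 10.30 in control 1, 2 and 3. The groups overlapped, and model 1, which had the highest actin ratio (12.8), was the lowest array. The difference was -0.56 (SE 0.417) in model against control and -0.70 (SE 0.417) in drug against control, with limma adjusted p of 0.567 and 0.713. Without model 1 the difference in model against control was -0.13. The fainter Ghr probe set spread far wider, at 9.10, 5.97 and 5.34 in drug livers, 7.21, 5.69 and 5.32 in model livers, and 9.48, 6.89 and 6.90 in control livers. Drug 1 and control 1, the arrays with the lowest Gapdh ratios, were its highest. Its difference in model against control was -1.68 (SE 1.003) in the fit without the Gapdh ratio and 0.58 (SE 0.477) with it. Where on the transcript each probe set lies was not examined, and the part of RNA quality in the gap between them was not tested.

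Stat5b, the transducer through which the receptor acts on liver genes, was lower in the model livers in every array. It was at 4.83, 3.97 and 4.52 in drug livers, 4.55, 3.71 and 4.12 in model livers, and 6.08, 4.93 and 4.74 in control livers. All model values lay below all control values, as for 10.9% of all probe sets, while drug 1 overlapped with the control range. The difference was -1.12 (SE 0.418, 95% interval -2.05 to -0.19) in model against control, with an unadjusted p of 0.0229 and a limma adjusted p of 0.395. In drug against control it was -0.81 (SE 0.418), with a limma adjusted p of 0.697. The Gapdh ratio was above the control range in all 3 model arrays, and with a term for it the Stat5b difference in model against control was -0.50 (SE 0.414, unadjusted p = 0.251). Without drug 1 and control 1 it was -0.71 (SE 0.367). Stat5a, the close paralogue, was 0.36 lower on the log2 scale in the same comparison. Its mean was 5.40 in model and 5.76 in control livers, and its groups overlapped. With the Gapdh term Stat5a differed by -0.87 (SE 0.364, unadjusted p = 0.0382, limma adjusted p = 0.566). Whether the Stat5b probes also bind Stat5a transcripts was not examined.

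**Figure D2:**
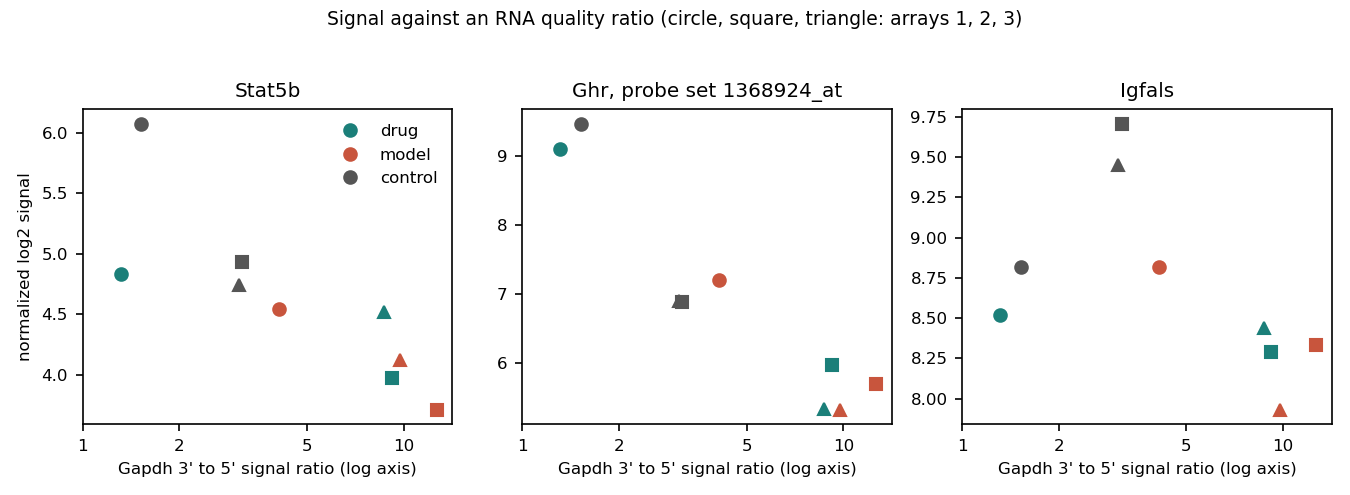
Normalized log2 signal (y axis) of Stat5b, of the fainter Ghr probe set and of Igfals against the Gapdh 3' to 5' signal ratio of the array (x axis, log scale), 1 point for each liver. Drug 1 and control 1, at ratios of 1.31 and 1.52, hold the highest Ghr values, while the highest Igfals values are those of control 2 and control 3, at ratios of 3.14 and 3.07.

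Cish encodes the cytokine-inducible SH2 protein, an early STAT5 target that damps signalling from the receptor. It had the widest range over the arrays of the 10 leading probe sets, 4.03 log2 units, above 94.9% of all probe sets tested. It was at 5.74, 4.14 and 4.12 in drug livers, 5.51, 4.18 and 4.76 in model livers, and 5.93, 2.45 and 6.48 in control livers. The low value belongs to control 2, an array low in Xist, while drug 3, the other such array, was level with drug 2. The fainter Cish probe set was at 4.86, 0.73 and 3.67 in drug livers, 2.98, 1.62 and 2.77 in model livers, and 5.05, 2.35 and 4.45 in control livers, so control 2 was again the lowest control but not the lowest array. The leading probe set differed by -0.14 (SE 0.929) in model against control, with a 95% interval from -2.20 to 1.93 (limma adjusted p = 0.957), which leaves the size undetermined in either direction. With drug 3 and control 2 left out it was -1.39 (SE 0.565, unadjusted p = 0.0397, limma adjusted p = 0.627), and with the Gapdh term 1.07 (SE 0.992).

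The Cish promoter is shown because it held the letters of a STAT5 site more often than nearly all other rat promoters. The motif searched was TTCNNNGAA, which reads the same on both strands. It occurred 4 times in the 300 bases around the Cish start, beginning 241, 230, 136 and 119 bases before it, and 4 or more times in only 2 of the 33469 promoters of the RefSeq table (0.00598%), where 8.87% held it at least 1 time. Among the other members with a promoter in the table (Igf1, Ghr, Igfals, Igfbp1, Igfbp2, Igfbp3, Igfbp4 and Stat5b) it was found 0 times. These letters are a description of the window and not a measured binding site. The Cish window (build GRCr8, chr8:116850719-116851018, plus strand, from 250 bases before to 50 bases after the RefSeq start) is printed 5' to 3', with the 4 matches and 1 match to the CAAAACA motif described with Igfbp1 in capitals.
Cish: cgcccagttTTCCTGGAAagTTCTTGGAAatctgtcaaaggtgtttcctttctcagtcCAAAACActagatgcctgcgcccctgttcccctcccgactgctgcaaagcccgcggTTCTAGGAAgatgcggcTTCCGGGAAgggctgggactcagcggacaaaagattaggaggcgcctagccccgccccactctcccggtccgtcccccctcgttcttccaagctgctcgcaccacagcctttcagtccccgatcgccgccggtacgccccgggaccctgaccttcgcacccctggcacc

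Socs2, a negative regulator of the growth hormone receptor whose loss makes mice large, was lower in drug and in model livers than in control livers. It was at 5.10, 4.93 and 3.61 in drug livers, 4.42, 5.20 and 4.27 in model livers, and 5.50, 5.43 and 6.15 in control livers. Neither the drug nor the model values overlapped with control, as for 6.49% and 10.9% of all probe sets in that direction. The difference was -1.15 (SE 0.439, 95% interval -2.13 to -0.17) in drug against control and -1.06 (SE 0.439, -2.04 to -0.09) in model against control. The limma adjusted p was 0.683 and 0.405, and the unadjusted p 0.0258 and 0.0357. Drug and model livers differed by -0.08 (SE 0.439). With the Gapdh term the differences were -1.04 (unadjusted p = 0.0483) in drug against control and -0.87 (unadjusted p = 0.136) in model against control, and without drug 3 and control 2 they were -0.81 and -1.20.

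Igf1 itself differed little between the groups. Its leading probe set was at 11.45, 11.84 and 11.93 in drug livers, 11.64, 11.78 and 11.50 in model livers, and 11.20, 12.13 and 11.84 in control livers. The difference was -0.08 (SE 0.253) in model against control, with a 95% interval from -0.65 to 0.48. A loss of more than 0.65 log2 units lies outside that interval, which holds for this probe set and fit only. Between drug and model livers the difference was 0.10 (-0.46 to 0.66), and drug and control livers differed by 0.02 (-0.54 to 0.58). The limma adjusted p lay between 0.898 and 0.998. The direction of each of these small differences depended on the arrays, the scaling or the probe sets used. The other Igf1 probe sets differed by 0.01 and 0.04 in model against control. Control 2 was the highest array in all 3 Igf1 probe sets, and control 1 the lowest.

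Igfals, the liver gene for the acid-labile subunit that holds IGF-1 in its large circulating complex, had the smallest p of the 10 genes. It was at 8.52, 8.29 and 8.44 in drug livers, 8.82, 8.33 and 7.93 in model livers, and 8.82, 9.71 and 9.45 in control livers. All drug values lay below all control values, as for 6.49% of all probe sets, while model 1 reached the level of control 1. The difference was -0.96 (SE 0.295, 95% interval -1.62 to -0.31), or 1.95-fold lower, in model against control, with an unadjusted p of 0.00836 and a limma adjusted p of 0.384. In drug against control it was -0.91 (SE 0.295, -1.56 to -0.25), with an unadjusted p of 0.0115 and a limma adjusted p of 0.683, and in drug against model 0.06 (SE 0.295, -0.60 to 0.71). With the Gapdh term the differences from control were -0.88 (SE 0.355) for model and -0.86 (SE 0.306) for drug livers. In a moderated F test over the 3 groups, Igfals had an unadjusted p of 0.0139 and Socs2 of 0.046, where 7.45% of all probe sets had one under 0.05, and the limma adjusted p were 0.657 and 0.662.

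As the study took whole liver, fewer cells of a type and less RNA per cell cannot be told apart. The summed normalized signal of 7 hepatocyte markers was 31960 to 33740 in drug, 28410 to 34710 in model and 33110 to 33810 in control livers, and all 7 passed the signal filter. That of 9 macrophage markers was 1285 to 2111 in drug, 1376 to 2661 in model and 1069 to 1665 in control livers. That of 7 sinusoidal endothelial markers was 610.6 to 721.8, 865.9 to 1211 and 686.6 to 795.6, and that of 9 stellate cell markers 552.0 to 844.6, 767.8 to 1020 and 533.8 to 711.8 in the same order of groups. For the endothelial and stellate sums, the 3 model arrays lay above the 3 control arrays without overlap. Gene by gene, 5 of the 7 endothelial markers were higher in model livers, with a median of 0.45. Of the 9 stellate markers 4 were higher and 5 lower, with a median of -0.17: the collagen gene Col3a1, the brightest, had means of 9.01 in model and 8.20 in control livers, while Col1a2 had 4.90 and 5.68. Their part in the member differences was not tested.

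**Figure D3:**
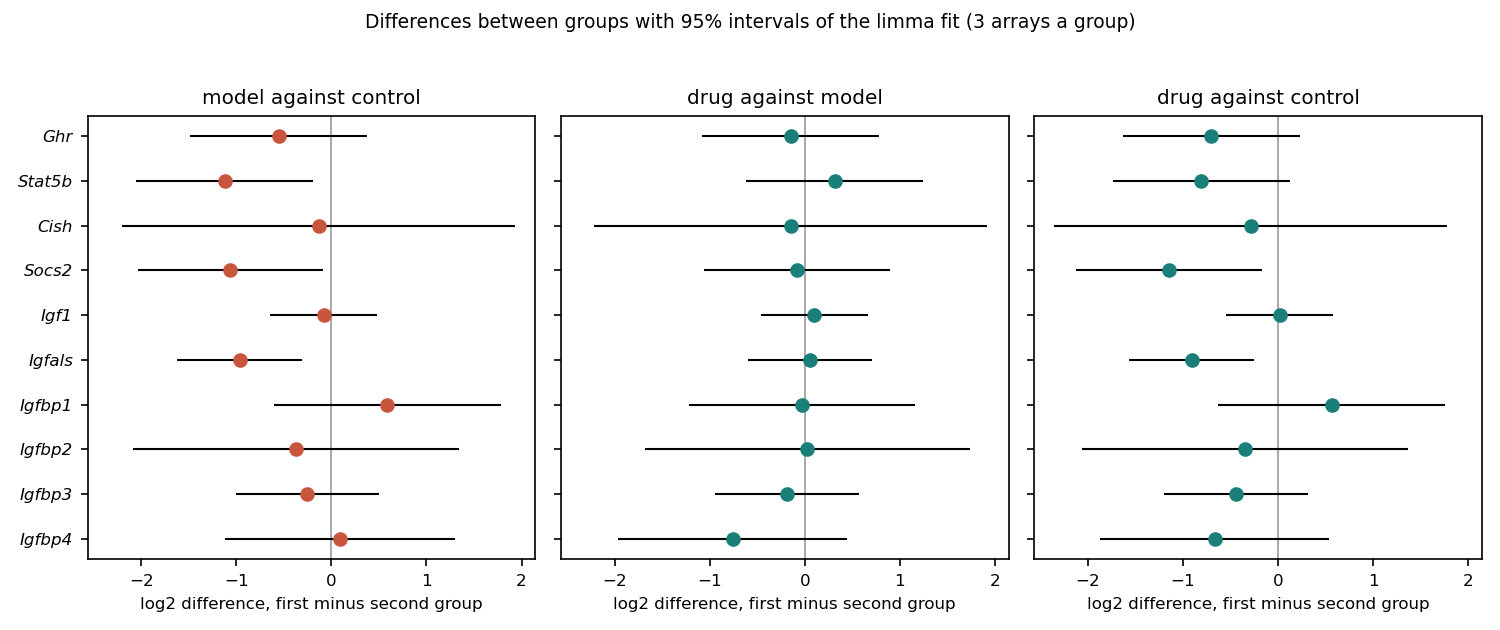
Log2 difference (x axis) of the leading probe set of each gene in model against control, drug against model and drug against control, with the 95% interval of the limma fit as a line. The intervals of Igfals and Socs2 lie below 0 in both comparisons with control, that of Stat5b lies below 0 in model against control, and all 10 intervals of drug against model include 0.

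Igfbp1, the binding protein that insulin represses and fasting raises, was at 9.85, 10.30 and 8.54 in drug livers, 9.07, 9.67 and 10.04 in model livers, and 9.93, 8.08 and 8.99 in control livers. The lowest values were those of control 2 and drug 3, the arrays low in Xist, and the groups overlapped. The difference was 0.56 (SE 0.534) in drug against control and 0.59 (SE 0.534) in model against control, with limma adjusted p of 0.786 and 0.630. Without control 2 alone they were 0.10 and 0.13, and without control 2 and drug 3 they were 0.61 and 0.13. Without normalization both turned to -0.07 and -0.28, where the medians of all probe sets were -0.36 and -0.40.

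The Igfbp1 promoter is shown beside that of Cish because it holds a second kind of control letters. In mammals its proximal promoter carries an insulin response element, bound by FOXO factors, that contains CAAAACA. This motif, searched on both strands (as TGTTTTG on the other), occurred 1 time in the Igfbp1 window, beginning 121 bases before the start, 1 time in that of Igf1 (67 bases before) and 1 time in that of Cish (192 bases before), and 6.28% of all promoters held it. The window is given as for Cish (build GRCr8, chr14:86261027-86261326, plus strand), with the match in capitals.
Igfbp1: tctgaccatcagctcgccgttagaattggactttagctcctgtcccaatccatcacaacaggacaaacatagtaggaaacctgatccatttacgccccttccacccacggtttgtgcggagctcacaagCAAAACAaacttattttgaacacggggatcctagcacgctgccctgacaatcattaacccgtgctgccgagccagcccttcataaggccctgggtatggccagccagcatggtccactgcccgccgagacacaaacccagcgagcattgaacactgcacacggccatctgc

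Igfbp2, a binding protein that growth hormone lowers and fasting raises, ranged over 3.02 log2 units. It was at 7.23, 5.74 and 6.29 in drug livers, 5.74, 7.71 and 5.73 in model livers, and 8.22, 5.20 and 6.89 in control livers. The spread was as wide inside the groups as between them, and each difference had an SE of 0.770, with values of -0.37 for model against control, -0.34 for drug against control and 0.03 for drug against model. Control 2 was the lowest array and control 1 the highest. Without drug 3 and control 2 the difference in model against control was -1.16 (SE 0.740). Without drug 1 and control 1 it was 0.35 (SE 0.670).

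Igfbp3, the main carrier of IGF-1 in blood and a product of the non-parenchymal cells of rat liver, was at 7.60, 8.37 and 7.92 in drug livers, 7.55, 8.77 and 8.13 in model livers, and 8.24, 8.77 and 8.20 in control livers. The difference was -0.25 (SE 0.339) in model against control and -0.44 (SE 0.339) in drug against control, with limma adjusted p of 0.754 and 0.752. Its probe sets disagreed in sign: the fainter one differed by 0.30 (SE 0.275) in model against control and by 0.23 (SE 0.275) in drug against control. With the Gapdh term the leading probe set differed by -0.76 (unadjusted p = 0.038) in model against control and by -0.73 (unadjusted p = 0.0247) in drug against control, with limma adjusted p of 0.564 and 0.527.

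Igfbp4, a binding protein that restrains IGF action in tissues, was at 7.85, 9.66 and 9.22 in drug livers, 8.51, 10.17 and 10.31 in model livers, and 9.25, 9.84 and 9.64 in control livers. Replicate 1 was the lowest array of each group. The difference was -0.76 (SE 0.541) in drug against model, -0.67 (SE 0.541) in drug against control and 0.09 (SE 0.541) in model against control, with limma adjusted p of 0.998, 0.763 and 0.95. Without drug 1 the differences of drug livers were -0.23 from model and -0.14 from control. With the Gapdh term the differences from control were -1.31 (SE 0.277, unadjusted p = 0.000819) for drug and -1.065 (SE 0.322, unadjusted p = 0.00793) for model livers, with limma adjusted p of 0.319 and 0.496. The part of RNA quality in these values was not tested further.

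**Figure D4:**
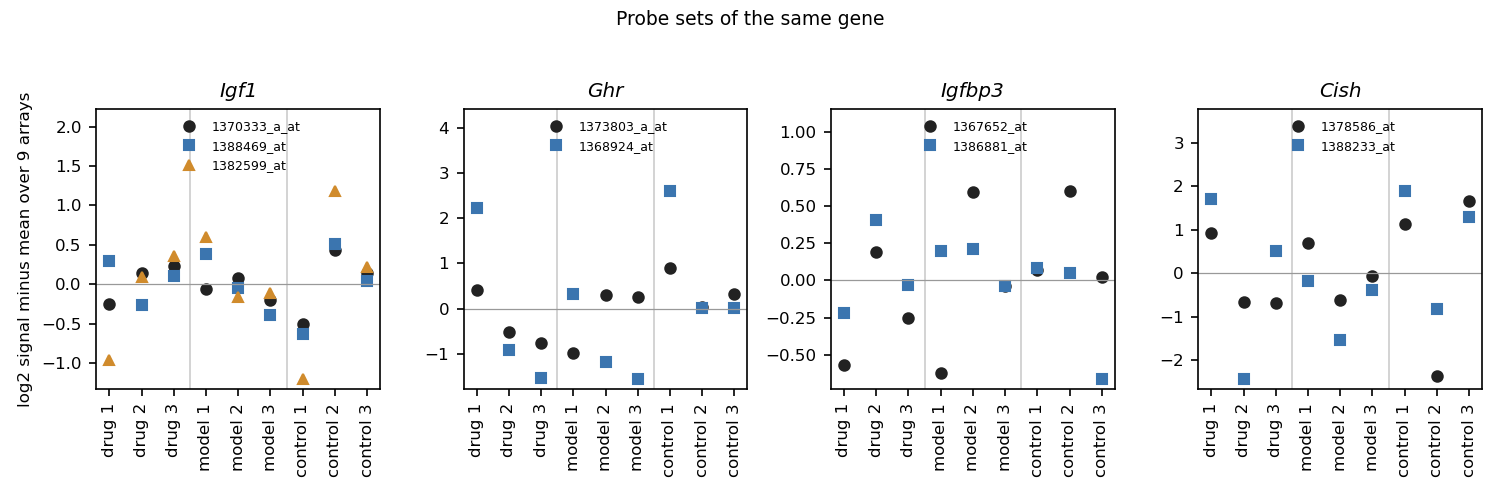
Log2 signal of each probe set minus its own mean over the 9 arrays (y axis) in each liver (x axis), for the 4 genes with more than 1 probe set. The Igf1 probe sets are all lowest in control 1 and highest in control 2, while those of Igfbp3 part most in model 1 and control 3, and those of Cish in drug 2 and control 2.

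The agreement of probe sets bears on how much each gene can be read. Over the 9 arrays Pearson's r between probe sets of the same gene was 0.871, 0.597 and 0.624 for the 3 pairs of Igf1, 0.676 for Cish, 0.502 for Ghr and 0.214 for Igfbp3, as a description without a test. Igfals, Socs2, Stat5b, Igfbp1, Igfbp2 and Igfbp4 had 1 probe set each, so no such comparison exists for the 3 genes lowest in model against control.

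The other genes of growth hormone signalling were split in model against control and mostly lower in drug against model. Of 16 tested genes, 10 were higher and 6 lower in model than in control livers, with a median of 0.20, and 2 were higher at an unadjusted p under 0.05 (6.51% of all probe sets were). These were the phosphatases Ptpn2, which dephosphorylates STAT proteins, and Ptpn1, another phosphatase that acts on the receptor's kinase. Ptpn2 was at 6.61, 7.67 and 7.30 in drug livers, 8.30, 6.95 and 7.46 in model livers, and 6.15, 6.08 and 6.24 in control livers. Ptpn2 was higher by 1.42 (SE 0.372, limma adjusted p = 0.384) in model against control and by 1.04 (SE 0.372, limma adjusted p = 0.683) in drug against control. Ptpn1 was higher by 0.74 (SE 0.272, limma adjusted p = 0.394) in model against control, while its other probe set differed by -0.01. In drug against model 14 of the 16 were lower, and their median was -0.23 (all probe sets -0.02, with 52.1% below 0). Without drug 3 and control 2, 11 of the 16 were lower. Of these, 1 gene was lower at an unadjusted p under 0.05 (1.8% of all probe sets were), Socs3, an inhibitor induced by cytokines as well as by growth hormone, at 3.90, 2.27 and -0.10 in drug livers and 4.80, 4.25 and 3.62 in model livers. It differed by -2.20 (SE 0.854), with a limma adjusted p of 0.998, and 2 of the 3 drug values lay under the filter level of 2.82. Without drug 3 it was -1.14. The kinase Jak2 differed by 0.24 (SE 0.625) in model against control, and by 1.11 (SE 0.665) with the Gapdh term.

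In the wider IGF system 8 of 12 tested genes were lower in model than in control livers, with a median of -0.33. The insulin receptor Insr went the other way, at 5.75, 5.50 and 5.44 in drug livers, 6.15, 6.29 and 6.20 in model livers, and 5.93, 5.09 and 5.17 in control livers. Every model value lay above every control value, as for 11.8% of all probe sets, and also above every drug value. The share of probe sets with both was not counted. The difference was 0.82 (SE 0.276, limma adjusted p = 0.384) in model against control and -0.65 (SE 0.276, limma adjusted p = 0.998) in drug against model, while a fainter Insr probe set differed by 0.47 and 0.24 in the same comparisons. Without drug 3 and control 2 the leading values were 0.67 and -0.59. Igf2bp2, an RNA-binding protein named for its binding to the Igf2 messenger, was at 3.70, 3.64 and 3.63 in drug livers, 2.48, 0.05 and 1.71 in model livers, and 3.50, 3.24 and 3.46 in control livers. Its model values lay under the filter level, and with a mean of 2.82 over all arrays it passed the filter through its drug and control values, so no test of it is given. The receptor Igf1r, which adult hepatocytes hardly express, had a mean of 3.62 in drug, 3.92 in model and 4.15 in control livers. Igf2, a fetal growth factor, lay below the filter.

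Among 11 genes that answer to fasting and insulin, 7 were higher and 4 lower in model than in control livers, with a median of 0.24 and 0 at an unadjusted p under 0.05 (12.1% of all probe sets were). Without drug 1 and control 1 the split was 5 higher and 6 lower, with a median of -0.12. Pck1, the enzyme that commits carbon to gluconeogenesis, was at 10.71, 11.39 and 11.15 in drug livers, 11.59, 11.80 and 11.95 in model livers, and 11.09, 11.53 and 11.24 in control livers. It differed by 0.50 (SE 0.224, limma adjusted p = 0.415) in model against control and by -0.70 (SE 0.224, limma adjusted p = 0.998) in drug against model. With the Gapdh term these were 0.14 and -0.54. Srebf1, the lipogenic factor that insulin induces, was higher in drug livers by 1.28 against model (SE 0.379, limma adjusted p = 0.998) and by 1.04 against control (SE 0.379, limma adjusted p = 0.683). Without drug 3 the differences were 0.86 and 0.62. Ppargc1a, a coactivator of gluconeogenesis, had means of 4.69 in drug and 2.82 in control livers, a difference of 1.87 (SE 0.809, limma adjusted p = 0.683) that rested on control 2, which was at 0.61. Without control 2 it was 0.77, and another Ppargc1a probe set that passed the filter differed by 0.21. The model values of Pck1 lay above all drug and all control values, and those of Igfbp1, which shares its hormonal control, did not. For Pck1 the lowest model value was 11.59 and the highest control value 11.53. Model values lay above all control values for 11.8% of all probe sets. The share that also lay above all drug values was not counted.

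Several sex-dependent transcripts lay very differently in drug 3 and control 2, others did not, and members of the axis did so only in part. Bcl6, a repressor that binds many of the same sites as STAT5 in mouse liver and is higher in males, was at 6.47 in drug 3 and 8.07 in control 2, and between 3.40 and 5.12 elsewhere. Prlr, the prolactin receptor and a female-predominant gene, was at 7.29 in drug 3 and 8.50 in control 2, and between 9.46 and 11.33 elsewhere. Cux2, a female-predominant repressor, was at 3.70 in drug 3 and 1.53 in control 2, and between 5.47 and 7.73 elsewhere. Cyp3a18, a male-predominant gene, was at 10.97 in drug 3 and 10.03 in control 2, with model 1 between them at 10.59. Cyp2a1, a female-predominant gene, lay between 9.19 and 11.01 elsewhere, and at 10.32 in drug 3 and 10.29 in control 2. Of the 10 members, Igfbp1 and Cish were lowest in these 2 arrays and the leading Igf1 probe set highest in them, but the next array was close for Cish (4.14 in drug 2, against 4.12 in drug 3) and for Igf1. The other 7 genes did not have both arrays at the same end. Of the male-predominant list, 9 of 9 tested genes were lower in model than in control livers, with a median of -1.77, and 9 of 9 higher in drug than in model livers, with a median of 2.46. Without drug 3 and control 2 the direction against control turned: 6 of 9 were then higher in model livers, with a median of 0.68, and 6 of 9 were higher in drug than in model livers, with a median of 0.28. Drug 3 and control 2 carried the highest signals of this list in their groups, with sums of 21420 and 16570 against 334.0 to 3312 in the other 7 arrays.

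**Figure D5:**
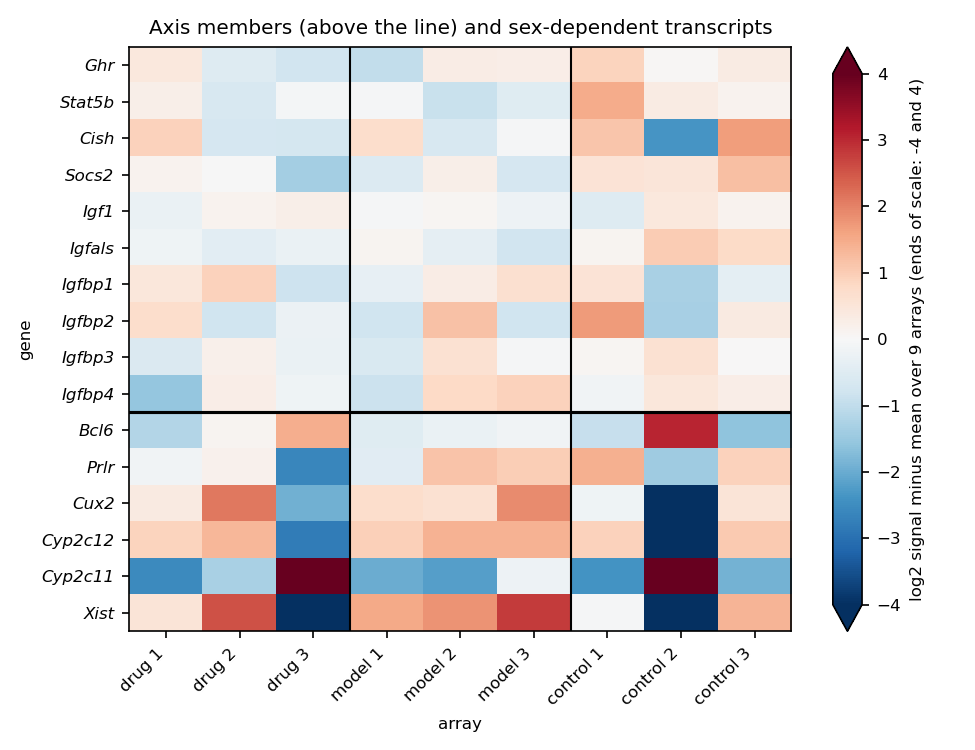
Log2 signal minus the mean over the 9 arrays (colour, ends of the scale at -4 and 4) of the 10 members, above the line, and of 6 chosen sex-dependent transcripts, below it, in each liver. For each transcript below the line drug 3 and control 2 lie together at the high or the low end, and above it the largest deviation is that of Cish in control 2.

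The genes whose pattern over the 9 arrays was most like that of each member, by Pearson's r of normalized log2 signal, are given as a description. They were Arhgef10l, Ankhd1 and Srp72 for Igf1, Bex3, Cdk14 and Mbtps1 for Ghr, Grina, C20h6orf136 and Slc10a3 for Igfals, and Asgr1, Spryd7 and Actg1 for Stat5b. For Socs2 they were Cwc15, Plbd2 and C1qtnf5, and for Cish Mob2, Trim11 and Pdzd8. For the binding proteins they were Snrpa1, Nos3 and Ddx25 (Igfbp1), Serpinb9, LOC100910973 and Oxct1 (Igfbp2), Sfxn3, Zmat5 and Prkaca (Igfbp3), and Itga5, Raver1 and Hectd3 (Igfbp4). The values of r lay between 0.901 (Pdzd8 with Cish) and 0.972 (Itga5 with Igfbp4). The 9 arrays differ in group, overall signal and RNA quality, and the part of these in r was not tested. No other member was among the genes named.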

How the data were processed

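The authors deposited 1 linear signal intensity for each probe set and array, made with GCOS 1.2 per the submitters' processing notes from biotin-labelled total RNA, per the labels' protocols. The scaling and background settings are not given in the sources used here, and the intensities had no common scale. Samples were grouped by their titles. The members, gene lists, normalization and alternatives were chosen with earlier results of these data known. After 57 control probe sets were left out, log2 intensities were quantile normalized, which removes any true difference in total RNA, and probe sets at or above the 40th percentile of mean signal were tested (18625 of 31042). limma 3.58.1 (R 4.3.3) was fitted to all 9 arrays with a term for each group and an intensity trend, two-sided, with Benjamini-Hochberg adjustment over all 18625. With 3 arrays a group, their number limits the precision, and an exact permutation test cannot go below 0.1. Symbols came from the platform annotation (20826 probe sets with 1 symbol, 436 with several, 9780 with none), and all 15 members matched the RefSeq gene table by Entrez identifier. Named genes were all members, up to 4 genes per list and comparison with the smallest unadjusted p, and the 3 most alike in pattern. Other genes named were picked from the same lists and markers after their values were seen. The fit did not treat same-numbered arrays as paired. Correlations of their deviations lay between -0.00522 and 0.482, the highest between drug 1 and control 1, so pairing by number was not shown. Promoters are from RefSeq (GRCr8), and 9 of 10 members matched. The fit was tested on simulated data. Figures were drawn with matplotlib 3.10.9. The replicates were separate rats per the labels, so p-values measure the spread between animals and preparations together.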

Additional observations from a re-analysis of the deposited data

How the results depend on the processing

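No member passed the adjusted threshold under any alternative, and the lowest limma adjusted p was 0.0876. Of 720 values over the 30 member differences, 642 kept their direction and 78 turned it, and the cause was not tested. Igfals stayed between -1.219 and -0.7495 in model against control and between -1.163 and -0.7171 in drug against control when 1 array at a time was left out. In model against control Socs2 then lay between -1.347 and -0.8382, with an unadjusted limma p of up to 0.126. Stat5b lay between -1.376 and -0.7088, with an unadjusted limma p of up to 0.103. The values of genes and lists outside the 10 members with arrays left out, or with the Gapdh term, were chosen after seeing the data. The limits are 3 arrays a group and 1 probe set each for 6 of the 10 genes. A further limit is RNA quality: the Gapdh ratio was above the control range in all 3 model arrays, while the actin ratio ranked the arrays otherwise. Xist, Cyp2c11 and Eif2s3y also went against the male label in 7 of 9 arrays, and Uty did not follow that pattern.

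With a term for drug 3 and control 2, the turned difference for model against control was 0.06651 for Igf1. With a term for drug 3 and control 2, the turned differences for drug against model were -0.04861 for Igf1, 0.0662 for Ghr, -0.04564 for Igfals, 0.4594 for Igfbp1, 0.2167 for Socs2 and 0.6129 for Cish. With drug 3 and control 2 both left out, the turned difference for model against control was 0.1213 for Igf1. With drug 3 and control 2 both left out, the turned differences for drug against model were 0.09163 for Ghr, 0.485 for Igfbp1, 0.3857 for Socs2 and 0.1229 for Cish. With probe sets averaged per gene, the turned differences for drug against model were -0.0403 for Igf1, 0.2915 for Ghr and 0.2404 for Cish. With probe sets averaged per gene, the turned difference for drug against control was -0.05067 for Igf1. With probe sets averaged per gene, the turned difference for model against control was 0.02426 for Igfbp3. Without normalization, the turned differences for drug against control were -0.4763 for Igf1 and -0.07212 for Igfbp1. Without normalization, the turned differences for drug against model were 0.06488 for Ghr, 0.2063 for Igfbp1 and 0.005348 for Socs2. Without normalization, the turned differences for model against control were -0.2784 for Igfbp1 and -0.7732 for Igfbp4. With median centring, the turned difference for drug against control was -0.1874 for Igf1. With median centring, the turned differences for drug against model were 0.02353 for Ghr and 0.1649 for Igfbp1. With median centring, the turned difference for model against control was -0.4431 for Igfbp4. With trimmed mean scaling, the turned difference for drug against control was -0.04088 for Igf1. With trimmed mean scaling, the turned difference for drug against model was 0.08185 for Igfbp1. With trimmed mean scaling, the turned differences for model against control were -0.2134 for Igfbp4 and 0.07456 for Cish. With a term for the Gapdh ratio, the turned differences for drug against control were -0.163 for Igf1 and 0.3869 for Cish. With a term for the Gapdh ratio, the turned differences for model against control were 0.2064 for Igfbp2, -1.065 for Igfbp4 and 1.072 for Cish. With a term for the Gapdh ratio, the turned differences for drug against model were -0.2283 for Igfbp2 and 0.03729 for Igfbp3. With drug 1 and control 1 both left out, the turned difference for drug against control was -0.09865 for Igf1. With drug 1 and control 1 both left out, the turned differences for model against control were 0.3525 for Igfbp2, -0.07274 for Igfbp4 and 0.355 for Cish. With drug 1 and control 1 both left out, the turned difference for drug against model was -0.3767 for Igfbp2. With array weights, the turned differences for model against control were 0.3069 for Igfbp2 and 0.0137 for Igfbp3. With array weights, the turned difference for drug against model was -0.6816 for Igfbp2. Leaving out 1 array at a time, the differences for model against control ranged over -0.3444 to 0.1213 for Igf1, -1.157 to 0.3525 for Igfbp2, -0.5635 to 0.04568 for Igfbp3, -0.2354 to 0.6675 for Igfbp4 and -1.388 to 0.6257 for Cish. Leaving out 1 array at a time, the differences for drug against control ranged over -0.2435 to 0.2222 for Igf1, -1.128 to 0.3811 for Igfbp2 and -1.537 to 0.4765 for Cish. Leaving out 1 array at a time, the differences for drug against model ranged over -0.5689 to 0.09163 for Ghr, -0.159 to 0.2852 for Igfals, -0.3953 to 0.485 for Igfbp1, -0.3767 to 0.6869 for Igfbp2, -0.4889 to 0.1202 for Igfbp3, -0.3592 to 0.3857 for Socs2 and -0.6858 to 0.1969 for Cish.

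With the replicate number as a replicate block, 0 members passed the adjusted threshold in any comparison, and 3, 1 and 4 genes had an unadjusted p under 0.05 in model against control, drug against model and drug against control, where 19.5%, 5.81% and 12% of all probe sets had one. Same-numbered arrays were not shown to be paired: the correlations of their deviations lay between -0.00522 and 0.482, and 3 of 9 arrays correlated best with one of their own number.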
